A study of Homo sapiens with 9 samples.

Results

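The contrast described here sets 3 arrays of MED23 knockdown directly against 3 arrays of ELK1 knockdown, 6 of the 9 arrays in the series, with no control array in the difference. All arrays hold RNA of A549 cells, an established human lung adenocarcinoma line, kept in serum-containing medium with no further treatment. The si-Med23 arrays carry RNA interference oligos A, B and C against MED23, and the si-Elk1 arrays carry oligos A, B and C against ELK1. Per the design text the oligos of a knockdown sit in different cell lines, so the spread within a group includes differences between oligos and lines. The remaining 3 arrays carry a control oligo (si-Ctrl). They are not in the difference, but they enter the estimate of spread behind its p-values and the choice of genes and probe sets. Their values are given for orientation. Nothing in the labels says that the samples of a group were independent cultures beyond the different oligos, so p-values measure no more than the variation among these arrays, part of which may be technical.

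MED23 belongs to the tail module of Mediator, which passes signals from DNA-bound transcription factors to RNA polymerase II. ELK1 is an ETS factor that binds promoters with serum response factor, is phosphorylated by ERK, and in that form can contact MED23. The series concerns the need of Ras-active lung cancer cells for MED23, and the contrast asks which transcripts differ when the Mediator subunit is reduced from when the factor that contacts it is reduced. Levels are log2(signal + 1) of a gene's probe set, a set of short probes whose signals are summarised as 1 value. A difference is the mean of si-Med23 minus the mean of si-Elk1 on that scale, so a positive value means higher in si-Med23, and 1 unit is 2-fold.

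The arrays of a group were not equally alike. Over the 12616 genes tested, si-Elk1 oligos A and B correlated at 0.979, and the si-Med23 arrays among themselves at 0.973 to 0.976. The si-Elk1 oligo C array correlated with oligos A and B at 0.959 and with the si-Med23 arrays at 0.953 to 0.960, where oligos A and B gave 0.934 to 0.942. On the first principal component of the 6 arrays, oligo C lay at 12.8, between oligos A and B at 44.3 and 41.8 and the si-Med23 arrays at -33.2, -37.1 and -28.7. Among the genes that passed the test below, oligo C was the si-Elk1 array nearest to the si-Med23 side for 68.7%. Counts over all genes and for some of the gene lists are therefore also given without it.

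Control probe sets also differed between the knockdowns. The added poly-A spike transcripts averaged 9.22 ± 0.12 (SD, n = 3) in si-Med23, 8.25 ± 0.29 in si-Elk1 and 7.61 ± 0.20 in si-Ctrl. The si-Med23 and si-Elk1 arrays did not overlap, and the exact permutation test gave p = 0.1, the smallest that 3 against 3 arrays allow. Hybridization controls differed by 0.32 and 18S ribosomal RNA by 0.70, each with an exact permutation p = 0.1, and the ratio of 3' to 5' ACTB probe sets differed by 0.010 (exact permutation p = 1). The same ratio for GAPDH differed by -0.037, with no overlap between the knockdowns (exact permutation p = 0.1). Scaling the arrays on the poly-A spikes lowers every difference by 0.97 and leaves 33 genes higher and 10219 lower. Scaling on the hybridization controls lowers them by 0.32 (359 higher, 3943 lower), and median centring raises them by 0.37 (4711 higher, 553 lower). Differences below are on the deposited scale, so a positive difference under 0.97 turns negative with poly-A spike scaling. The part of RNA amount or labelling in the results was not tested.

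**Figure D1:**
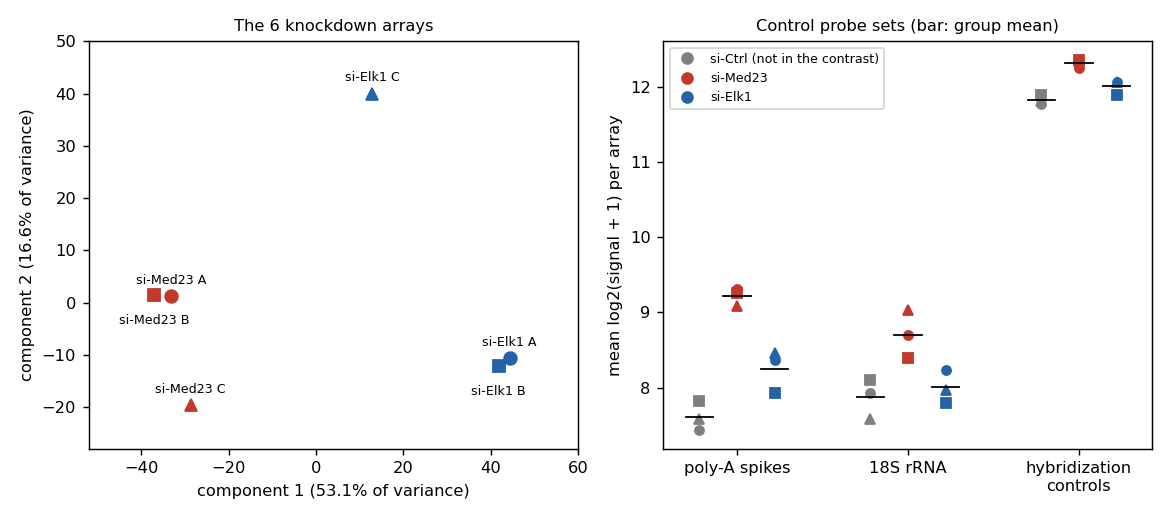
Left, the 6 knockdown arrays on the first 2 principal components of the genes tested, where si-Elk1 oligo C lies apart from oligos A and B. Right, the mean log2(signal + 1) of 3 kinds of control probe set for each of the 9 arrays (points) with group means (bars); the poly-A spikes average 9.22 in si-Med23, 8.25 in si-Elk1 and 7.61 in si-Ctrl.

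Of 12616 genes tested with limma, 2739 (21.7%) passed an adjusted p of 0.05, where adjusted means by Benjamini-Hochberg over all genes tested. In si-Med23, 1204 were higher (9.54%) and 1535 lower (12.2%), and the median difference over all genes was -0.03. Genes with at least a 2-fold difference leaned to the lower side, with 210 higher and 618 lower. The 3 si-Med23 and 3 si-Elk1 arrays did not overlap for 4791 genes (38.0%), and 2696 of these also passed the test. The arrays without overlap had si-Med23 higher in 18.5% of genes and lower in 19.5%. On the same fit 5023 genes (39.8%) differed between si-Med23 and si-Ctrl, 20.3% higher and 19.5% lower in si-Med23. Between si-Elk1 and si-Ctrl 537 (4.26%) differed, 3.07% higher and 1.19% lower in si-Elk1. Those 2 comparisons share the control arrays, and their values are given only side by side for single genes.

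The count depended on which array was in the fit. Without si-Elk1 oligo C 4496 genes passed, 2045 higher and 2451 lower. Of the 2739 genes, 2588 (94.5%) also passed without oligo C, and these are 57.6% of the 4496. Without si-Elk1 oligo A 769 passed and without oligo B 896, while the fit without si-Med23 oligo A gave 1629 and without oligo B 1338. Of the 159 singled-out genes that passed, 67 passed in each of the 9 fits that left out 1 array. They included 23 of the 24 genes of largest difference above the dim level. These 24 hold MED23 and ELK1, the genes that the oligos target, whose calls here come from the fit of the genes tested. The exception, NEFL, had an adjusted p of 0.0551 without si-Elk1 oligo A. Also among the 67 were 39 of the 76 list members of smallest p, but 5 of the 52 list members named after values were seen. Without si-Elk1 oligo A 85 of the 159 lost their call and without oligo B 82. GRB2, MAP2K2, SMAD2, RFC3, CYCS, MED4, PHLDA3, SLC7A11, ALDOA, ID2, P4HA1, PDK1 and RPL8 passed in 1 of the 9. C3, CEBPD, CLDN12, EREG, FAS, LINC01676, MED15, MUC1, MUC5B, POLA1, POLE2, SC5D, SMAD4, TPPP3 and ZEB1 passed in 2.

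**Figure D2:**
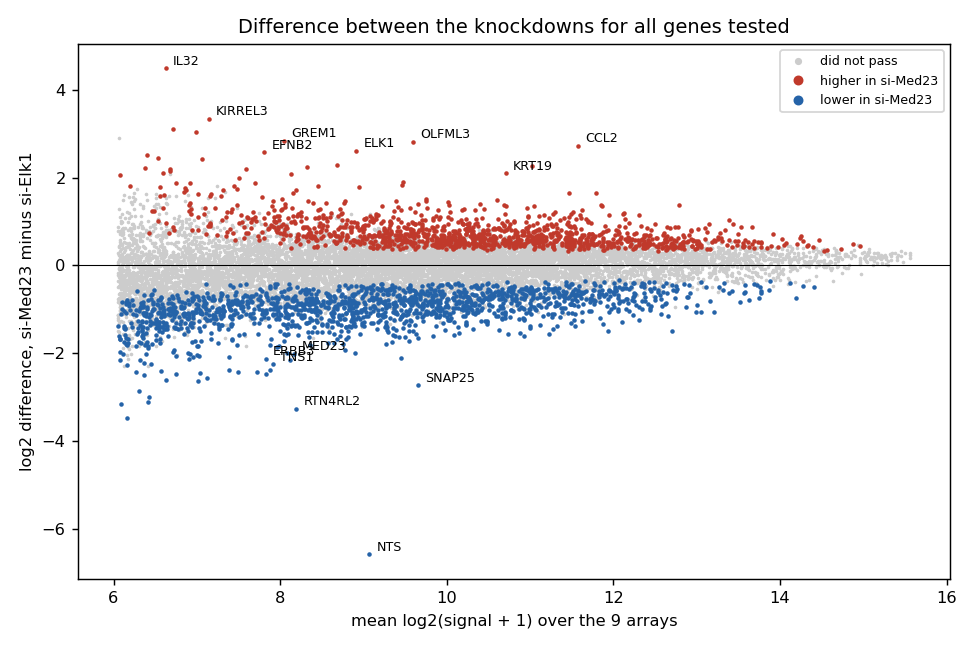
Each point is 1 of the 12616 genes tested, with its mean log2(signal + 1) over the 9 arrays on the x axis and its log2 difference, si-Med23 minus si-Elk1, on the y axis. Coloured points passed an adjusted p of 0.05 (1204 higher, 1535 lower), and NTS lies farthest from 0 at -6.57.

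Both targets were lowest in their own knockdown. MED23 read 6.79, 6.19 and 7.06 in si-Med23 oligos A, B and C, 8.87, 9.02 and 8.18 in si-Elk1, and 9.27, 9.05 and 9.08 in si-Ctrl. The groups did not overlap, and in the fit over all probe sets the difference was -2.01 ± 0.30 (SE, adjusted p = 0.0493), a level of 24.8% of that in si-Elk1. ELK1 read 9.98, 10.36 and 9.54 in si-Med23, 7.07, 7.15 and 7.83 in si-Elk1, and 9.36, 9.61 and 9.29 in si-Ctrl. Its difference was 2.61 ± 0.29 (adjusted p = 0.0274). With 1 array left out of this limma fit over all probe sets, the adjusted p ran from 0.0275 to 0.135 for MED23. For ELK1 it ran from 0.0275 to 0.0822, so neither call held in every such fit. On these probe sets, oligo C of si-Elk1 had both the highest ELK1 and the lowest MED23 of its group. On the other ELK1 probe sets oligo A read highest in si-Elk1. Among the other MED23 probe sets oligo C was lowest on some and highest on the rest. All 5 MED23 probe sets were lower and all 3 ELK1 probe sets higher in si-Med23, though only the sets given here passed the test. That of ELK1 has a name ending in _x_at, which marks probes that can match more than 1 transcript.

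Neurotensin (NTS), a secreted peptide that acts through G protein-coupled receptors, separated the knockdowns most. It read 6.14, 5.48 and 6.13 in si-Med23, 12.44, 12.79 and 12.23 in si-Elk1, and 9.02, 8.52 and 8.89 in si-Ctrl. The control arrays lay between the knockdowns, which differed by -6.57 ± 0.23 (SE, adjusted p = 1.04e-05). Against si-Ctrl the values were -2.89 in si-Med23 (adjusted p = 0.00184) and 3.68 in si-Elk1 (adjusted p = 0.000402). The si-Med23 oligo B array was under the level used to leave out dim genes (6.05), and with signals raised to that level the difference was -6.38. NTS passed in all 9 fits that left out 1 array.

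The promoters below, from RefSeq on GRCh38.p14, are shown for NTS and for a lower and a higher gene that carry the ETS core letters. They are the 250 bases before the annotated start, read on the gene's strand. Capitals mark motif letters: TGACATC and TATATA in NTS, and CCGGAAG in ELK4 and MED18. All 3 genes, and the NTS motifs, were chosen after values were seen.
NTS: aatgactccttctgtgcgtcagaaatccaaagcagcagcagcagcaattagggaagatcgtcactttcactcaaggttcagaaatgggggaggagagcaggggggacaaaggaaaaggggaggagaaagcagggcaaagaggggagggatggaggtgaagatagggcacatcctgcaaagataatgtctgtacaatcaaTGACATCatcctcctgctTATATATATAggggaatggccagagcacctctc
ELK4: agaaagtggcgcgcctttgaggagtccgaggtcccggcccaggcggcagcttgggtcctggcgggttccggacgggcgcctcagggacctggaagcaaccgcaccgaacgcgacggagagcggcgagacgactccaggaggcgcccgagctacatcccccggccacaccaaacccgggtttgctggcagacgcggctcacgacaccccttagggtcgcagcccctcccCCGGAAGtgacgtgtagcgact
MED18: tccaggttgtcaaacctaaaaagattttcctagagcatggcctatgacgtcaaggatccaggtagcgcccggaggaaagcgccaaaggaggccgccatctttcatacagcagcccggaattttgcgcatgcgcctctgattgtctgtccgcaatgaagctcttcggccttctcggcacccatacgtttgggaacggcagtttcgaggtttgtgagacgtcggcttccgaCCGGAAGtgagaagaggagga
The NTS window is chr12:85874045-85874294 on the plus strand, with TGACATC beginning at position -51 and 3 overlapping TATATA matches after it. ELK4 is at chr1:205632012-205632261 on the minus strand with CCGGAAG at -22, and MED18 at chr1:28328790-28329039 on the plus strand with CCGGAAG at -21.

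On both strands, CCGGAAG is in 8.52%, TGACATC in 3.72% and TATATA in 3.73% of the 35116 promoters of the table. Among tested genes with a promoter there, CCGGAAG was in 15.7% of 10259, in 158 of 986 higher genes and in 202 of 1220 lower genes. The shares differ little between the directions. Of the 165 named genes 125 have a promoter there, and 14 of these carry CCGGAAG. Only 79.5% of the lower genes have a promoter in the table, so this check is void for them by the 80% limit used here.

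Among genes higher in si-Med23 with every si-Elk1 array above the dim level, the 12 of largest difference included secreted, surface and epithelial genes. ELK1, the target of the si-Elk1 oligos, is also among the 12. OLFML3, a secreted olfactomedin-domain protein, read 10.81, 10.69 and 11.65 in si-Med23, 8.02, 8.21 and 8.46 in si-Elk1 and 9.65, 9.43 and 9.40 in si-Ctrl, a difference of 2.82 ± 0.25 (adjusted p = 0.00175). CCL2, a chemokine that attracts monocytes, read 12.83, 13.09 and 13.38 against 10.39, 10.66 and 10.08, with 11.40, 11.21 and 11.16 in si-Ctrl. For both genes the control arrays lay between the knockdowns, and CCL2 differed by 2.72 ± 0.19 (adjusted p = 0.000978). EFNB2, the ligand ephrin-B2, read 9.12, 8.53 and 9.24 against 6.38, 6.12 and 6.68, with 7.87, 8.22 and 8.13 in si-Ctrl, a difference of 2.57 ± 0.22.

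The other genes of this group lay differently against the control. SOX2, a transcription factor of airway progenitors, read 10.28, 10.04 and 10.41 in si-Med23, close to 9.89, 9.91 and 9.73 in si-Ctrl, and 8.11, 8.33 and 8.62 in si-Elk1. The difference was 1.89 ± 0.16 (adjusted p = 0.00175), though 1 of its other probe sets had the opposite sign. LHFPL6 likewise differed by 0.08 from si-Ctrl in si-Med23 (adjusted p = 0.832) and by -2.01 in si-Elk1 (adjusted p = 0.0121). PDZK1IP1, a small membrane protein, read 9.88, 10.12 and 11.55 in si-Med23, 8.21, 8.001 and 8.49 in si-Elk1 and 7.57, 7.30 and 7.09 in si-Ctrl, so it lay above the control in both knockdowns. KRT19, a simple-epithelium keratin, read 10.88, 12.55 and 12.15 against 9.71, 9.61 and 9.97, a difference of 2.10 ± 0.37 (adjusted p = 0.0101). As a mean of all its probe sets KRT19 gave 1.35 and an adjusted p of 0.057. The remaining genes were FXYD2, a subunit that regulates the sodium pump (2.25), NDRG4 (2.24), HAS3, a hyaluronan synthase (1.82), and ANXA10, an annexin (1.82). The other HAS3 probe set gave 0.073.

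The 12 genes of largest negative difference among those without overlap and with every si-Med23 array above the dim level include MED23, the target. Of the 12, SNAP25, SCG2, CEMIP, MYOCD, TNS1, GRHL3 and ERBB3 were higher in si-Elk1 than in si-Ctrl in the same fit. SNAP25, a membrane-fusion protein of regulated secretion, read 8.96, 8.07 and 9.07 in si-Med23, 11.36, 11.54 and 11.38 in si-Elk1 and 8.88, 8.98 and 8.66 in si-Ctrl. The si-Med23 arrays overlapped the control arrays, and the difference between knockdowns was -2.72 ± 0.25 (adjusted p = 0.00175). ERBB3, an EGF receptor family member, read 7.21, 7.05 and 7.07 against 9.36, 9.15 and 9.21, with 7.01, 7.14 and 7.27 in si-Ctrl. It differed by -2.13 ± 0.12 (adjusted p = 0.00027). CEMIP, which takes part in hyaluronan breakdown, gave -2.38 ± 0.19, GRHL3, an epithelial transcription factor, -2.14 ± 0.21, and MYOCD, a coactivator of serum response factor, -2.37 ± 0.32. In CEMIP, GRHL3 and MYOCD si-Med23 differed from si-Ctrl by -0.28, -0.24 and -0.51, none passing, and si-Elk1 by 2.10, 1.90 and 1.87, each passing.

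TNS1, a focal adhesion protein, was above the control in both knockdowns. It read 7.57, 7.72 and 7.43 in si-Med23, 9.84, 9.60 and 10.02 in si-Elk1 and 6.34, 6.55 and 6.14 in si-Ctrl, and the knockdowns differed by -2.25 ± 0.16. ITPR1, a calcium channel of the endoplasmic reticulum, read 7.09, 6.66 and 7.06 against 9.19, 8.89 and 8.69, with 8.22, 8.42 and 8.55 in si-Ctrl, a difference of -1.99 ± 0.18. OMA1, a protease of the inner mitochondrial membrane, read 7.60, 7.21 and 8.29 against 10.16, 9.95 and 8.97, a difference of -1.99 ± 0.35. For ITPR1 and OMA1 the si-Med23 arrays were below the control arrays. NPTX1, a neuronal pentraxin, differed by -2.11 ± 0.38 and NEFL, a neurofilament subunit, by -1.93 ± 0.40.

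**Figure D3:**
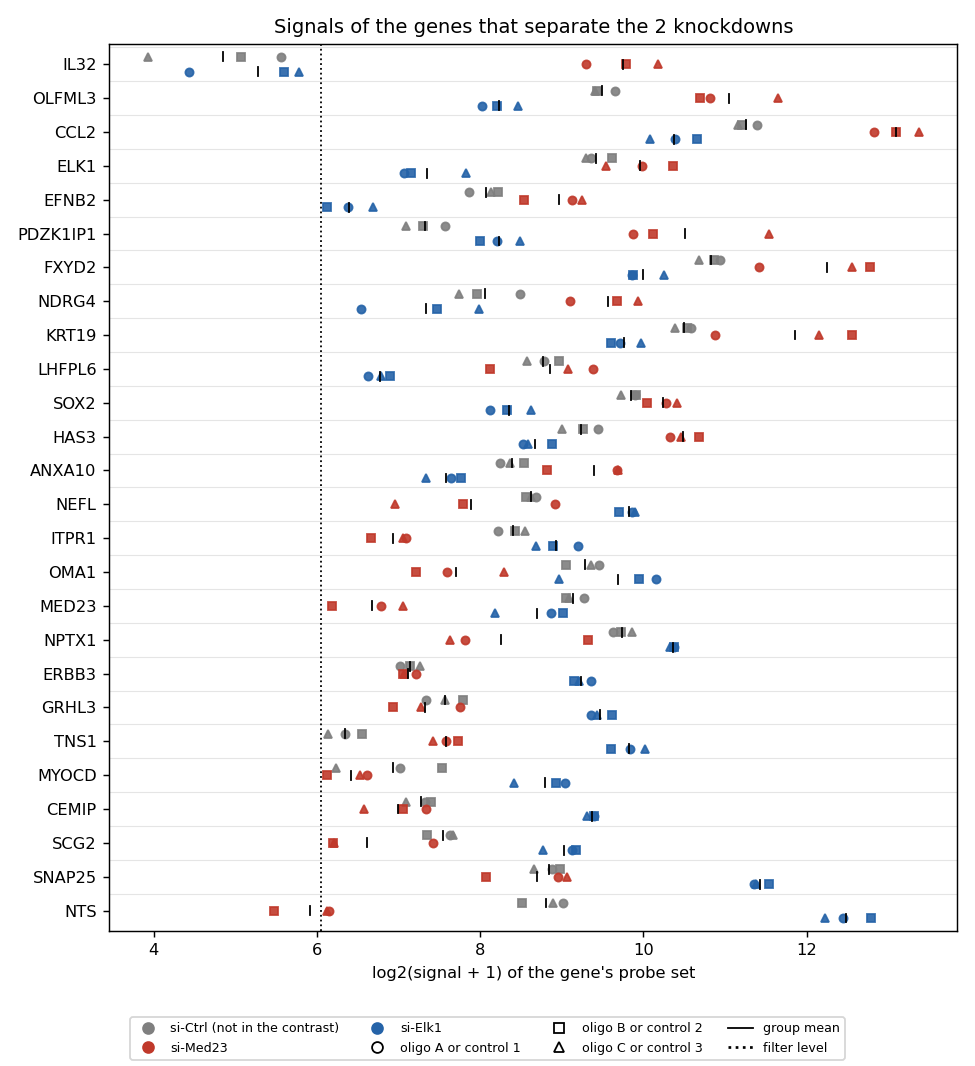
Log2(signal + 1) in each of the 9 arrays (points, shaped by oligo) with group means (bars) for the 24 genes of largest difference among those without overlap and above the dim level in every array of the lower group (12 higher and 12 lower in si-Med23), and for IL32 and NTS, whose differences are larger and whose lower group holds dim arrays. The 24 include ELK1 and MED23, the genes that the oligos target. The si-Med23 and si-Elk1 points do not overlap in any row, and the dotted line is the level of 6.05 used to leave out dim genes.

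Some large differences rest on a group with 1 or more arrays under the dim level. IL32, an inflammatory cytokine, read 9.30, 9.79 and 10.18 in si-Med23, 4.43, 5.59 and 5.78 in si-Elk1 and 5.55, 5.06 and 3.93 in si-Ctrl. It differed by 4.48 ± 0.48 (adjusted p = 0.0033), and by 3.70 with signals raised to the dim level. KIRREL3, an adhesion molecule, read 7.44, 8.63 and 8.37 against 4.27, 4.45 and 5.71, with 8.52, 8.67 and 8.23 in si-Ctrl, and its difference went from 3.33 to 2.09. IL32 was thus high in si-Med23 alone and KIRREL3 dim in si-Elk1 alone. GREM1, a secreted BMP antagonist, read 8.73, 9.55 and 9.41 against 5.99, 6.52 and 6.66, with 8.45, 8.47 and 8.60 in si-Ctrl, a difference of 2.84 ± 0.24 (adjusted p = 0.00175). Only 1 of its si-Elk1 arrays was under the dim level, and raised it gave 2.82. The protocadherins PCDH10 and PCDH7 gave 3.10 and 3.03 (1.72 and 2.14 raised), RRAD, a small GTP-binding protein, 2.19 (1.47 raised), TRMT2A, a tRNA methyltransferase, 2.21 (1.57 raised) and SYTL5, a vesicle protein, 2.44 (1.91 raised).

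On the lower side RTN4RL2, a receptor of the Nogo family, gave -3.25 (-3.06 raised), and TNNT3, a troponin subunit, -2.86 (-1.21 raised). The noncoding RNA LINC00354 gave -3.16 (-1.05 raised), LINC01676 -3.00 (-1.36 raised), LOC221946 -3.48 (-1.21 raised) and FRMPD3 -2.42 (-1.35 raised). LINC01676 had an adjusted p of 0.0407 and MUC5B, a gel-forming mucin, of 0.0434, and each lost its call in 7 of the 9 fits that left out 1 array. TNNT3, PCDH10 and TRMT2A each lost it in 4, without si-Elk1 oligos A and B among others. FRMPD3 and LINC00354 lost it without si-Elk1 oligo A. The genes outside the naming rule here (PCDH10, PCDH7, SYTL5, RTN4RL2, MUC5B and TNNT3) were chosen after values were seen.

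The inflammatory genes that passed were all higher in si-Med23. Of 27 NF-kB and inflammatory genes tested, 11 were higher, 0 lower and 16 did not pass, with a median difference of 0.66 against -0.03 over all genes; it was -0.31 under poly-A spike scaling. Over all genes 9.54% were higher and 12.2% lower, and the counts of each list below are to be set beside these shares. The members that passed were CCL2, CXCL1, CXCL2, CXCL6, CXCL8, IL6, IL32, RELB, NFKBIZ, TNFAIP3 and TNIP1. CXCL8, which attracts neutrophils, read 13.42, 12.62 and 13.54 in si-Med23, 12.15, 11.95 and 11.99 in si-Elk1 and 11.08, 11.06 and 11.24 in si-Ctrl, a difference of 1.17 ± 0.22 (adjusted p = 0.0129). CXCL6 gave 2.43, IL6 1.63, CXCL2 1.37 and CXCL1 1.20. All were also higher in si-Med23 than in si-Ctrl. The list had 5 higher members without si-Elk1 oligo A and 13 without oligo C. IL1A (-0.93), CCL5 (-0.51) and CCL20 (-0.36) had the opposite sign and did not pass.

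Interferon response genes gave 8 higher and 0 lower of 24, with a median of 0.43 that was -0.54 under poly-A spike scaling. In this list 33.3% passed, against 21.7% of all genes. PSMB8, an immunoproteasome subunit, read 10.75, 10.47 and 10.71 in si-Med23, 8.80, 9.20 and 9.41 in si-Elk1 and 9.28, 9.67 and 9.51 in si-Ctrl. IFI35 differed by 1.27 and ISG15, a ubiquitin-like modifier, by 1.19. The si-Med23 arrays were the highest for PSMB8 in all 3 oligos. The count of higher members was 4 without si-Elk1 oligo A and 11 without oligo C.

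Complement genes divided, with 2 higher and 3 lower of 10 (50% passed, against 21.7% of all genes). C3, the central component, read 12.01, 11.01 and 12.67 in si-Med23, 10.53, 10.54 and 10.85 in si-Elk1 and 8.22, 7.99 and 7.86 in si-Ctrl. Both knockdowns were above the control, si-Med23 the more so (1.25 ± 0.36, adjusted p = 0.0387). CD59, which blocks the membrane attack complex, was higher (0.57, and -0.40 under poly-A spike scaling). C5 (-1.37) and the surface regulators CD55 (-1.19) and CD46 (-0.90) were lower. With probe sets ending in _x_at or _s_at left out CD55 gave -0.068 (adjusted p = 0.769). Leaving out si-Elk1 oligo A left 0 members higher and 1 lower, and without si-Med23 oligo B 4 were higher.

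Matrix and mesenchymal genes gave 10 higher and 2 lower of 27, with a median of 0.48 that was -0.49 under poly-A spike scaling. Collagen COL5A1 read 10.24, 11.17 and 10.85 in si-Med23, 9.35, 9.30 and 9.41 in si-Elk1 and 9.03, 8.91 and 8.66 in si-Ctrl, a difference of 1.40 ± 0.22 (adjusted p = 0.00775). TNC, the matrix protein tenascin-C, differed by 1.68, PLAU, the urokinase, by 1.22, COL4A2 by 1.03 and CDH2, N-cadherin, by 0.96 (-0.01 under poly-A spike scaling). MMP2, a gelatinase, was lower in si-Med23 than in si-Elk1 (-0.65) with both above the control (1.23 and 1.87). ZEB1, a repressor of epithelial genes, gave -1.40, and its groups overlapped at si-Elk1 oligo C (7.83, against 7.02, 6.57 and 7.98 in si-Med23). Leaving out si-Elk1 oligo A left 6 higher, and without si-Med23 oligo A 0 were lower.

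Of TGF-beta and BMP genes 3 were higher and 4 lower of 31, near the shares over all genes (9.54% and 12.2%). The higher members were GREM1, LTBP2, a latent TGF-beta binding protein (0.93), and the ligand TGFB1 (0.59), the latter 2 negative under poly-A spike scaling. The lower members were SMAD2 (-0.39), SMAD4 (-0.49), ID2 (-0.77) and ID4 (-1.24). ID4, an inhibitor of helix-loop-helix factors, read 10.11, 9.47 and 9.71 in si-Med23, 10.99 to 11.01 in si-Elk1 and 7.73, 8.27 and 7.78 in si-Ctrl, above the control in both. SMAD4 had probe sets of both signs. The count was 5 higher and 9 lower without si-Elk1 oligo C, 1 higher without si-Med23 oligo B and 1 lower without si-Ctrl 1.

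Lung lineage genes gave 6 higher and 2 lower of 16 (50% passed, against 21.7% of all genes). The list median of 0.54 was -0.43 under poly-A spike scaling. Besides SOX2, GATA6 was higher at 9.55, 9.86 and 9.75 in si-Med23 against 8.86, 8.52 and 8.63 in si-Elk1 and 8.70, 8.84 and 8.46 in si-Ctrl (1.05 ± 0.15). FOXA2 (0.70), CEBPD (0.72) and ABCA3, the surfactant lipid transporter (0.87), were also higher, and these 3 turn negative under poly-A spike scaling. MUC1, a membrane mucin, gave 1.51. Of the gel-forming mucins MUC5AC was lower, with 5.50, 5.02 and 6.27 in si-Med23 against 8.30, 8.07 and 8.31 in si-Elk1 and 6.99, 7.77 and 6.94 in si-Ctrl (-2.63 ± 0.33, adjusted p = 0.00494). With probe sets ending in _x_at or _s_at left out it gave -0.11 (adjusted p = 0.891). The list had 2 higher members without si-Elk1 oligo A and 8 without oligo C.

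Epithelial junction and keratin genes gave 5 higher and 1 lower of 23 (26.1% passed, against 21.7% of all genes). CTNNB1, beta-catenin, read 12.22, 11.99 and 12.18 in si-Med23, 11.28, 11.14 and 11.27 in si-Elk1 and 11.04, 11.05 and 11.08 in si-Ctrl, a difference of 0.90 (-0.07 under poly-A spike scaling). PKP2, a desmosomal protein, was below si-Ctrl in both knockdowns (-0.74 and -1.61) and higher in si-Med23 than in si-Elk1 (0.87, and -0.10 under that scaling). JUP (0.48) and KRT8 (0.71) were higher, also negative under that scaling, and CLDN12, a tight junction claudin, was lower (-0.79). The list count was 2 higher without si-Med23 oligo B and 7 without si-Elk1 oligo C.

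Secreted peptide and neuroendocrine genes were lower in 5 of 12 and higher in 0, with a median of -0.22 (0.15 under median centring). Besides NTS these were SCG2, CHGB, STC1 and EDN1. SCG2, secretogranin II of dense-core granules, read 7.42, 6.20 and 6.21 in si-Med23, 9.13, 9.18 and 8.76 in si-Elk1 and 7.63, 7.34 and 7.66 in si-Ctrl (-2.41 ± 0.31, adjusted p = 0.00531). CHGB, chromogranin B, read 7.82, 7.67 and 8.17 against 9.54, 9.43 and 9.26, with 7.60, 8.26 and 7.74 in si-Ctrl. For CHGB the si-Med23 arrays overlapped the control arrays and the si-Elk1 arrays were above them. STC1, a stanniocalcin hormone, gave -0.86 and EDN1, endothelin-1, -0.42. The list was chosen knowing that NTS and SCG2 differ, so its count is not independent of them. Without si-Med23 oligo B 3 members were lower.

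**Figure D4:**
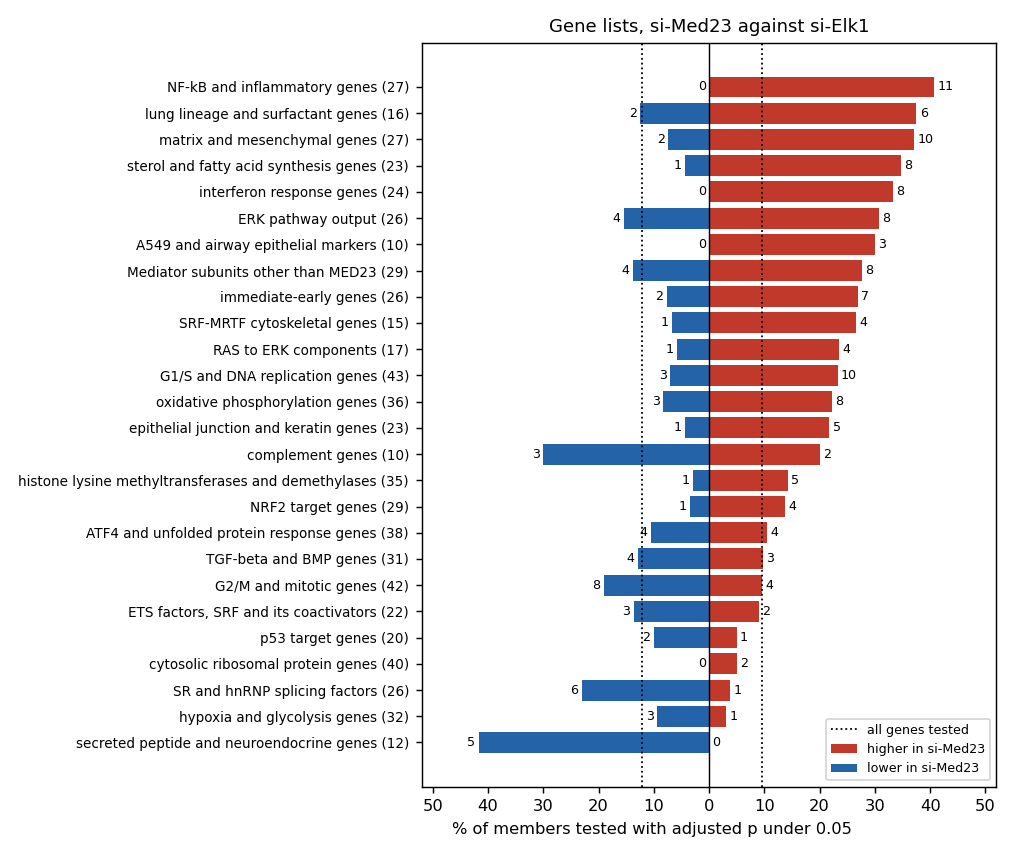
For 26 gene lists with at least 10 members tested (number in brackets), the percentage of members higher (right) and lower (left) in si-Med23 at an adjusted p of 0.05, with counts at the bar ends. Dotted lines are the shares over all genes tested, 9.54% higher and 12.2% lower; 11 of 27 NF-kB and inflammatory genes were higher and 5 of 12 secreted peptide genes lower.

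Among Mediator subunits other than MED23, 8 were higher and 4 lower of 29 (41.4% passed, against 21.7% of all genes). The list median of 0.11 was -0.06 as a mean of all probe sets and -0.86 under poly-A spike scaling. By module, 4 of 11 head subunits were higher and 0 lower, both tail subunits tested (MED15 and MED16) were higher, and 3 of 7 kinase module members were lower and 0 higher. MED18, a head subunit, read 8.94, 8.96 and 8.98 in si-Med23, 8.07, 7.88 and 8.42 in si-Elk1 and 7.89, 8.16 and 7.87 in si-Ctrl. The differences were 0.84 for MED18, 0.78 for MED16 and 0.51 for MED15, all negative under poly-A spike scaling. MED13, which joins the kinase module to the core, read 8.71, 8.89 and 8.71 against 10.19, 10.02 and 9.33, with 10.40, 10.23 and 10.66 in si-Ctrl (-1.08 ± 0.22, adjusted p = 0.0156). Cyclin C (CCNC) gave -0.65 and the kinase CDK8 -0.50, and CCNC was 0.04 as a mean of its probe sets. The middle subunit MED4 gave -0.45. Without si-Elk1 oligo A 1 member was higher and 1 lower, and without oligo C 9 and 7.

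ETS factors, SRF and its coactivators gave 2 higher and 3 lower of 22, near the shares over all genes (9.54% and 12.2%). ELK4, the ternary complex factor closest in role to ELK1, read 6.79, 7.59 and 7.70 in si-Med23, 9.06, 8.87 and 8.004 in si-Elk1 and 8.85, 9.16 and 9.08 in si-Ctrl (-1.29 ± 0.32, adjusted p = 0.0259). Its si-Elk1 oligo C array lay nearest to si-Med23. GABPA gave -1.10 and ETS2 1.09, and ETV5 gave 0.73 with probe sets of both signs and -0.24 under poly-A spike scaling. The remaining lower member is MYOCD. SRF itself gave 0.44 and did not pass (adjusted p = 0.135). The count was 5 higher and 5 lower without si-Elk1 oligo C, 0 higher without si-Med23 oligo B and 1 lower without si-Med23 oligo A.

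Immediate-early genes, which growth factors induce within minutes to hours, gave 7 higher and 2 lower of 26, with a median of 0.15 that was -0.17 under hybridization control scaling. EGR1, a known target of ELK1, read 6.34, 6.16 and 6.15 in si-Med23, 7.68, 7.03 and 7.10 in si-Elk1 and 7.41, 6.31 and 6.59 in si-Ctrl (-1.05 ± 0.28, adjusted p = 0.0336). The call was lost in 5 of 9 fits that left out 1 array, each of the si-Med23 oligos and si-Elk1 oligos A and B. NR4A2, an orphan nuclear receptor, gave -1.18. FOSL2, an AP-1 subunit (0.77), CCN1 (0.96), CCN2 (0.83) and KLF4 (0.64) were higher, and all 4 turn negative under poly-A spike scaling. Without si-Elk1 oligo A 2 members were higher.

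Genes of the ERK pathway were mixed. Of 26 output genes 8 were higher and 4 lower, and of 17 components from RAS to ERK 4 were higher and 1, ERBB3, lower. Feedback inhibitors divided: SPRY1 was higher (0.94, and -0.03 under poly-A spike scaling) and SPRED1 lower, at 8.94, 8.79 and 9.09 in si-Med23 against 10.04, 10.20 and 9.79 in si-Elk1 and 10.45, 10.40 and 10.21 in si-Ctrl (-1.07 ± 0.15). SPRED1 and the phosphatase DUSP6 (-0.44) have probe sets of both signs. EGF receptor ligands divided too, with BTC (-1.35) and EREG (-0.94) lower and TGFA higher (0.92, and -0.05 under poly-A spike scaling). EPHA4 (1.80) and IL11 (1.28) were the higher members of largest difference. The kinases ARAF (0.66) and MAP2K2 (0.56), the adaptor GRB2 (0.46) and RRAS2 (0.51) were higher and are negative under poly-A spike scaling. Leaving out si-Elk1 oligo A left 3 output genes higher, and without si-Med23 oligo B 0 components were.

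Cell-cycle genes passed in both directions. Of 43 G1/S and DNA replication genes 10 were higher and 3 lower, with a median of 0.24 that was -0.07 under hybridization control scaling. MCM5, of the replicative helicase, read 12.84, 12.64 and 12.36 in si-Med23, 11.72, 11.68 and 11.75 in si-Elk1 and 11.92, 11.92 and 11.84 in si-Ctrl (0.90, and -0.08 under poly-A spike scaling). The lower members were POLA1 (-1.10), POLE2 (-0.70) and RFC3 (-0.64). Of 42 G2/M genes 4 were higher and 8 lower, and the median of -0.03 is the same as over all genes. In the G1/S list 30.2% passed and in the G2/M list 28.6%, against 21.7% of all genes. The share of higher G2/M members is near the 9.54% over all genes. TOP2A, a topoisomerase, read 10.18, 10.34 and 10.47 against 12.09, 12.15 and 10.86, with 12.47, 12.43 and 12.83 in si-Ctrl (-1.37 ± 0.32, adjusted p = 0.0221). KIF11, a spindle motor, gave -1.07, and CDK1, the mitotic kinase, -0.73. For TOP2A and KIF11 si-Elk1 oligo C lay nearest to si-Med23. Lower G2/M members numbered 17 without oligo C and 1 without oligo A, and higher G1/S members 13 and 1. BIRC5 (-0.65), TOP2A and the replication gene GINS2 (0.73) have probe sets of both signs.

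Lipid synthesis genes gave 8 higher and 1 lower of 23, with a median of 0.28 that was -0.03 under hybridization control scaling. INSIG1, which restrains sterol synthesis, read 10.68, 10.60 and 11.11 in si-Med23, 9.76, 9.80 and 9.58 in si-Elk1 and 10.95, 10.80 and 10.51 in si-Ctrl. The si-Med23 arrays overlapped the control arrays and the si-Elk1 arrays were below them, and the knockdowns differed by 1.09 ± 0.17. NSDHL (0.84) and EBP (0.65, with probe sets of both signs), both of the cholesterol pathway, were higher and turn negative under poly-A spike scaling, and SC5D was lower (-0.66). Without si-Elk1 oligo A 2 members were higher. Oxidative phosphorylation genes gave 8 higher and 3 lower of 36 (30.6% passed, against 21.7% of all genes). NDUFB7 of complex I (0.84, and -0.13 under poly-A spike scaling) was higher. SDHD (-0.49), ATP5PB (-0.43) and CYCS (-0.40, with probe sets of both signs) were lower. The count was 14 higher without si-Elk1 oligo C and 1 without si-Med23 oligo B.

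The remaining lists gave few calls, and their counts moved with single arrays. Cytosolic ribosomal protein genes gave 2 higher (RPL8 and RPLP2) and 0 lower of 40, and 8 higher without si-Elk1 oligo C. Hypoxia and glycolysis genes gave 1 higher and 3 lower of 32, and p53 targets 1 higher (PHLDA3) and 2 lower of 20. Those 2 were RRM2B, a ribonucleotide reductase subunit (-1.52), and the death receptor FAS (-0.73). Leaving out si-Elk1 oligo C gave 6 higher and 5 lower hypoxia genes and 3 higher and 4 lower p53 targets, and leaving out si-Med23 oligo A left 0 lower in both lists. Against 21.7% of all genes, 17.2% of NRF2 targets passed (4 higher and 1 lower of 29). Of ATF4 and unfolded protein response genes 21.1% passed (4 higher and 4 lower of 38). Among them ATF5 was higher (1.29), and the cystine transporter SLC7A11 (-0.97, with probe sets of both signs) and DDIT4 (-0.95) were lower. Higher NRF2 targets numbered 0 without si-Elk1 oligo A and 8 without oligo C. The ATF4 and unfolded protein response genes had 1 higher and 1 lower without si-Elk1 oligo A, and 6 and 5 without oligo C.

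Splicing factors gave 1 higher and 6 lower of 26 with a median of 0.07 (26.9% passed, against 21.7% of all genes). HNRNPL, the higher member, read 11.02, 10.99 and 11.01 in si-Med23, 9.57, 9.62 and 10.00 in si-Elk1 and 9.90, 9.91 and 9.86 in si-Ctrl (1.28 ± 0.13, adjusted p = 0.00319). PTBP2 was lower (-1.37), and so was HNRNPH3 (-0.75). In both, si-Elk1 oligo C lay nearest to si-Med23. Lower members numbered 0 without si-Elk1 oligo A and 9 without oligo C. Histone lysine methyltransferases and demethylases gave 5 higher and 1 lower of 35, and the 17.1% that passed lie under the 21.7% of all genes. They included SETD1A (1.78), partly from dim si-Elk1 signals, and KDM1B (-0.75). The count was 7 and 7 without si-Elk1 oligo C, and 0 were higher without si-Elk1 oligo B. Cytoskeletal targets of SRF and its MRTF coactivators gave 4 higher and 1 lower of 15, with VCL, vinculin (0.41), and TPM1, a tropomyosin (0.62), higher and CALD1, caldesmon (-0.77), lower. VCL and TPM1 are negative under poly-A spike scaling, and TPM1 has probe sets of both signs. Higher members numbered 1 without si-Med23 oligo B.

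The labelled cell type was checked on its markers. All 10 airway epithelial and A549 markers measured were above the dim level, with a summed signal of 229346 to 281384 in si-Med23 and 193875 to 230905 in si-Elk1. Of 7 blood markers measured 5 were above the level, with PTPRC and CD4 under it, and their summed signal was 1084 to 1481 in si-Med23 and 1642 to 1666 in si-Elk1. CD3E alone of them passed (-2.49, adjusted p = 0.0365). Of endothelial markers 2 of 7 were above the level and of fibroblast markers 1 of 8, and none of these passed. The summed fibroblast signal was 291 to 393 in si-Med23, 593 to 811 in si-Elk1 and 403 to 552 in si-Ctrl, with no overlap between the knockdowns, and the summed endothelial signal was 274 to 388 in si-Med23 and 319 to 558 in si-Elk1. The part of these markers in the results was not tested, and in bulk samples fewer cells of a type and less RNA per cell cannot be told apart.

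The higher and lower genes also differed in gene span, which played no part in the test, and in level, on which the dim genes had been left out. The median gene span in the RefSeq table was 21.5 kb for the 1204 higher genes, 46.1 kb for the 1535 lower genes, 27.8 kb for genes that did not pass and 29.0 kb for all genes tested. The median level was 10.32 for higher and 9.09 for lower genes. Split by level into dim, middle and bright genes of equal number, the spans were 25.2 and 41.6 kb (dim), 23.7 and 51.7 kb (middle) and 17.8 and 45.1 kb (bright) for higher and lower genes. The order was the same in each. Spans are given as a description with no test, since genes are not independent samples.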

How the data were processed

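RNA was measured on 9 Affymetrix arrays, and the 3 si-Med23 arrays were compared with the 3 si-Elk1 arrays. The authors deposited intensity values, 1 linear signal per probe set; RMA and MAS5 are the tools in the submitters' processing notes, with no role given. The 2% trimmed mean was about 500 on every array, a scaling that removes changes common to all genes. No build of the genome is named by the labels.

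Of 54675 probe sets, 62 controls were kept out of gene tests. The platform annotation names 1 gene for 41091, several for 1801 and none for 11721. Each of 19775 genes took its probe set of highest mean among those with 1 gene, and 12616 genes whose mean reached the dim level were kept. That level, 6.05 on the log2 scale or a signal of 65.4, is the median over all probe sets. Signals were analysed as log2(value + 1).

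The test was limma's moderated test (version 3.58.1, R 4.3.3), two-sided with Benjamini-Hochberg adjustment, from 1 fit to the 9 arrays in which the controls enter only the estimate of spread. The code was first tested on simulated data. For MED23 and ELK1 a second fit took all 54613 probe sets. Control probe sets were compared with two-sided exact permutation tests. Named genes are the targets, the 12 highest and 12 lowest differences without overlap and above the dim level, 4 and 4 with a dim lower group, and up to 3 members of each list by p. Others named were chosen after values were seen. The members and the 29 gene lists were chosen with earlier results of these data known. Symbols, gene spans and promoters come from RefSeq tables (GRCh38.p14), and 41037 probe sets matched by gene identifier. Alternatives covered the filter, probe set choice, 4 scalings, pseudocount, block, array weights, prior, threshold and each array left out.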

Additional observations from a re-analysis of the deposited data

Results flagged for a closer look

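Control probe sets lie outside the gene comparison and stood above their si-Ctrl level in si-Med23. The poly-A spikes averaged 9.22 in si-Med23 and 8.25 in si-Elk1, against 7.61 in si-Ctrl. The hybridization controls averaged 12.33 in si-Med23 and 12.01 in si-Elk1, against 11.83. The 18S ribosomal RNA probe sets averaged 8.70 in si-Med23, against 7.87, while the si-Elk1 arrays (8.24, 7.79 and 7.97) overlapped the si-Ctrl arrays (7.93, 8.11 and 7.58). Between si-Med23 and si-Elk1 each of the 3 gave an exact permutation p = 0.1, the smallest possible with 3 arrays a group.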

How the results depend on the processing

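The alternatives were chosen with earlier results of these data known. Between si-Med23 and si-Elk1 the number of genes passing was 979 (415 higher, 564 lower) with no filter on dim genes, 1783 (730 higher, 1053 lower) with the mean of all probe sets, 5264 (4711 higher, 553 lower) with median centring, 10252 (33 higher, 10219 lower) with poly-A spike scaling. It was 4302 (359 higher, 3943 lower) with hybridization control scaling, 1074 (448 higher, 626 lower) with a fit of the 6 knockdown arrays, 1319 (557 higher, 762 lower) with the replicate block, 4966 (2253 higher, 2713 lower) with array weights. It was 1956 (744 higher, 1212 lower) with _x_at and _s_at probe sets left out, 398 (210 higher, 188 lower) with an adjusted p of 0.01, 828 (210 higher, 618 lower) with a change of at least 2-fold. With each array left out in turn it ran from 769 to 4496 (355 to 2045 higher, 414 to 2451 lower). Between si-Med23 and si-Ctrl the number of genes passing was 11898 (18 higher, 11880 lower) with poly-A spike scaling, 3635 (1687 higher, 1948 lower) with no filter on dim genes, 3558 (1565 higher, 1993 lower) with _x_at and _s_at probe sets left out, 6440 (4764 higher, 1676 lower) with median centring. It was 5614 (409 higher, 5205 lower) with hybridization control scaling. With each array left out in turn it ran from 3174 to 5884 (1500 to 3093 higher, 1674 to 2791 lower). Between si-Elk1 and si-Ctrl the number of genes passing was 119 (103 higher, 16 lower) with no filter on dim genes, 937 (598 higher, 339 lower) with a filter at the 70th percentile, 271 (201 higher, 70 lower) with the mean of all probe sets, 318 (227 higher, 91 lower) with _x_at and _s_at probe sets left out. It was 4993 (95 higher, 4898 lower) with poly-A spike scaling, 855 (588 higher, 267 lower) with signals raised to the filter level, 162 (139 higher, 23 lower) with the replicate block, 1594 (1004 higher, 590 lower) with array weights. It was 1064 (675 higher, 389 lower) with a trended and robust prior, 567 (239 higher, 328 lower) with median centring, 424 (166 higher, 258 lower) with hybridization control scaling. With each array left out in turn it ran from 109 to 498 (93 to 366 higher, 16 to 132 lower). Over all probe sets MED23 kept its direction but lost its call with quantile normalization (-1.81, adjusted p = 0.0519). In the fit of the 6 knockdown arrays MED23 (-2.01, adjusted p = 0.138) and ELK1 (2.61, 0.0981) lost it, as they did with the replicate block (adjusted p = 0.15 and 0.133). With 1 array left out MED23 ran from -2.27 to -1.77 (adjusted p 0.0275 to 0.135) and ELK1 from 2.41 to 2.85 (adjusted p 0.0275 to 0.0822). With 1 array left out the poly-A spike difference ran from 0.81 to 1.08, that of the hybridization controls from 0.26 to 0.35 and that of 18S RNA from 0.54 to 0.86. Under poly-A spike scaling, which subtracts the spikes' difference from each gene, these genes changed sign: ABCA3 -0.11, ALDOA -0.55, ARAF -0.32, CCN1 -0.012, CCN2 -0.15, CD59 -0.40, CDH2 -0.011, CEBPD -0.25, CTNNB1 -0.070, EBP -0.32, ETV5 -0.24, FOSL2 -0.20, FOXA2 -0.27, GINS2 -0.24, GPX2 -0.30, GRB2 -0.51, GSTM3 -0.23, JUP -0.49, KDM3B -0.42, KLF4 -0.33, KRT8 -0.27, LTBP2 -0.046, MAP2K2 -0.41, MCM5 -0.076, MED15 -0.46, MED16 -0.19, MED18 -0.13, NDUFB7 -0.13, NDUFV1 -0.32, NQO1 -0.48, NSDHL -0.13, PHLDA3 -0.41, PKP2 -0.10, PRC1 -0.37, RPL8 -0.53, RRAS2 -0.46, SERPINE2 -0.17, SPRY1 -0.030, TGFA -0.054, TGFB1 -0.38, TPM1 -0.35, UHRF1 -0.44, UQCRC1 -0.37, VCL -0.56. As a mean of all probe sets the sign changed for BIRC5 (0.44), CCNC (0.040), DUSP6 (0.16), GINS2 (-0.37), GSTM3 (-0.015), VCL (-0.42). Without probe sets ending in _x_at or _s_at the sign changed for ETV5 (-0.014), GINS2 (-0.086), GSTM3 (-0.77), SMAD4 (0.066). Of 159 named genes with a call, 79 lost it with no filter, 72 in the fit of 6 arrays and 56 with the replicate block. The call was lost by 35 under hybridization control scaling, 35 under median centring, 17 under quantile normalization, and 0 with a pseudocount of 16. The largest losses were 85 without si-Elk1 oligo A and 82 without oligo B, and without another array 4 to 62 lost it. As a mean of all probe sets, 44 of 144 named genes tested lost their call with the same sign, and 6 more with a changed sign. Without probe sets ending in _x_at or _s_at these were 13 and 4 of 119. The 144 and 119 include named genes that had no call. Same-numbered oligos of the knockdowns did not deviate together (correlations -0.06, -0.08 and -0.18). With 3 arrays a group and si-Elk1 oligo C apart from oligos A and B, this cannot show whether same-numbered samples shared a batch. Where not named above, the cause of a changed count was not tested. With 3 arrays a group the number of arrays limits the precision, and signals under the dim level carry no size.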

Other observations

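Probe sets with no gene named here were fitted with the rest in the fit over all probe sets. Of 54613 probe sets 229 passed there between si-Med23 and si-Elk1, and 45 of them were among the 11721 with no gene named. The spread within groups was largest in si-Elk1, with a median SD over genes of 0.23, against 0.20 in si-Med23 and 0.14 in si-Ctrl.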
